A study of Mus musculus with 12 samples.

Results

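The 10 genes described here are well-known responders to the hypoxia-inducible factors (HIF) that lie outside glycolysis, together with the factor's own subunit gene Hif1a: Hif1a, Egln1, Egln3, Bnip3, Ddit4, Ndrg1, Higd1a, Kdm3a, Vegfa and Adm. Their members on the arrays were all probe sets with 1 of these symbols as their single gene symbol in the platform annotation. This gave 23 of the 45137 probe sets on the arrays, and 10 of 18194 genes. Array A (MOE430A) held 22 of the 23 and array B (MOE430B) held 1, a probe set of Adm. Of the members, 3 genes had a single probe set and 7 had several.

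The RNA came from mouse R1 embryonic stem cells. The series set cells differentiated into embryoid bodies (D1, D2 and D3) against undifferentiated cells (U1, U2 and U3), and each of the 6 RNAs was hybridised once to each array type. No genetic change and no oxygen treatment is named for either group, and the growth description is worded alike for all arrays: 5 days in bacterial Petri dishes in D-MEM with 10% serum. The labels estimate the purity of the undifferentiated cells at 95%, and whether each RNA had a culture of its own is not stated. The p-values therefore cover only how far these RNAs scatter, and that scatter may be technical.

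HIF is a pair of proteins, an oxygen-regulated alpha subunit such as HIF-1 alpha and the stable partner ARNT. When oxygen is present, prolyl hydroxylases, among them the products of Egln1 and Egln3, modify the alpha subunit, and the VHL ubiquitin ligase then marks it for degradation. When oxygen falls, the alpha subunit persists, enters the nucleus and binds short promoter and enhancer sequences with the core RCGTG. Regulation of the alpha subunit is thus mainly at the protein, which arrays of RNA do not measure. The targets include genes for mitophagy, restraint of mTORC1, histone demethylation and secreted vascular factors, and transcription of several is also set by other pathways.

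To show the letters that this core would need, promoter windows of 4 members are printed, from RefSeq with build GRCm38.p6. They are the 2 members with the smallest adjusted p, Bnip3 and Ddit4, then a hydroxylase gene, Egln3, and Hif1a itself, for contrast. Each window is the 250 bases before the annotated start, written 5' to 3' along the gene's strand. Capitals mark ACGTG or GCGTG on either strand, so CACGT and CACGC are matches on the other strand, and CACGTG holds ACGTG on both. The windows lie at chr7:138909507-138909756 (minus strand) for Bnip3, chr10:59951771-59952020 (minus strand) for Ddit4, chr12:54203875-54204124 (minus strand) for Egln3 and chr12:73907617-73907866 (plus strand) for Hif1a.
Bnip3 promoter: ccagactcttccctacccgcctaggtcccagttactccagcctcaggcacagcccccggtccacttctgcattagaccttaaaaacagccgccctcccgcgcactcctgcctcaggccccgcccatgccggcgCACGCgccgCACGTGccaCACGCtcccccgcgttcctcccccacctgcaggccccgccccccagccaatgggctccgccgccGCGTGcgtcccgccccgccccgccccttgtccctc
Ddit4 promoter: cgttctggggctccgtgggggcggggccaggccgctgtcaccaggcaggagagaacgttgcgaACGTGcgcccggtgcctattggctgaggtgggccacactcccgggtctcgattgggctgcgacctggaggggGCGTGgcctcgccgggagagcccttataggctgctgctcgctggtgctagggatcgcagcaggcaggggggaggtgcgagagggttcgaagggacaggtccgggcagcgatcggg
Egln3 promoter: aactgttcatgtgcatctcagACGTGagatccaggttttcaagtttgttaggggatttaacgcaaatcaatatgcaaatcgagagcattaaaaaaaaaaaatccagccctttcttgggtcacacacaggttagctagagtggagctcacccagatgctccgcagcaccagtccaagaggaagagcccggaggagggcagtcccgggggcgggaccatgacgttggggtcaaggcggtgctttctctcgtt
Hif1a promoter: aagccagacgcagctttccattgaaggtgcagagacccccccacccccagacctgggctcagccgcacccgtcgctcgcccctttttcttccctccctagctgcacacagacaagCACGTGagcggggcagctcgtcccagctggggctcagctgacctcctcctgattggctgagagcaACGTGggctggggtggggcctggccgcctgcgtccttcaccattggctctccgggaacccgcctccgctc

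The Bnip3 window held 4 separate capitalised stretches, the Ddit4 and Hif1a windows 2 each and the Egln3 window 1. The nearest to the start lay 35 bases before it in Bnip3, 115 in Ddit4, 70 in Hif1a and 229 in Egln3. RefSeq gave 12 windows for 9 of the members, and 9 of the 12 windows held a match, at least 1 for each gene; 2 windows of Kdm3a and 1 of Vegfa held none, and Ndrg1 had no entry. For Vegfa, on the minus strand, the upstream window (chr17:46032378-46032627) was the one without a match. Its matches lay in the window of a start farther downstream (chr17:46025164-46025413), so they are not before the upstream start. Of all 32851 mouse windows of this length, 38.6% held a match (16.6% ACGTG, 28.2% GCGTG). The share rises with CpG content, since both words contain CpG: it was 60.9% of windows with 7 or more CpG and 19.4% of those with fewer, a division chosen after the members' counts were seen. A match is a description of letters and not a site of binding.

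Values below are log2 of the MAS5 signal after each array was scaled to a trimmed mean of 500, with signals under 32 set to 32 (a log2 of 5.00, called the floor). Differences are differentiated minus undifferentiated, with limma's standard error (SE) and an adjusted p from all probe sets tested on the same array; a probe set was tested if its mean over the 6 arrays was at least 6, and passed if its adjusted p was under 0.05. Levels of different probe sets are not comparable, so only differences between RNAs are read. Fewer cells of a type and less RNA per cell cannot be told apart in such samples.

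Of the 23 member probe sets, 20 were tested. Bnip3, Ddit4 and Ndrg1 each had 1 probe set that rose, and the other 17 did not pass. On array A, 1.31% of all tested probe sets rose and 1.56% fell; counted by gene, with 1 probe set each, 0.923% rose and 1.16% fell. By gene, 3 of the 10 members rose, 0 fell and 7 did not pass. Of the 20, 19 lay above 0, beside 51.6% of all probe sets tested on array A. An unadjusted limma p under 0.05 was found for 10 of them, beside 15.8% of all on array A (12.6% when counted by gene). In 12 tested probe sets, from 7 genes and all on array A, every differentiated RNA lay above every undifferentiated one, against 11.0% of all tested probe sets on array A. The median difference of the 19 tested on array A was 0.79, beside 0.02 for all probe sets tested there. The counts above 0, with an unadjusted p under 0.05 and without overlap include Ndrg1 1423413_at. That probe set reached the filter of 6 only through the differentiated RNAs.

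**Figure D1:**
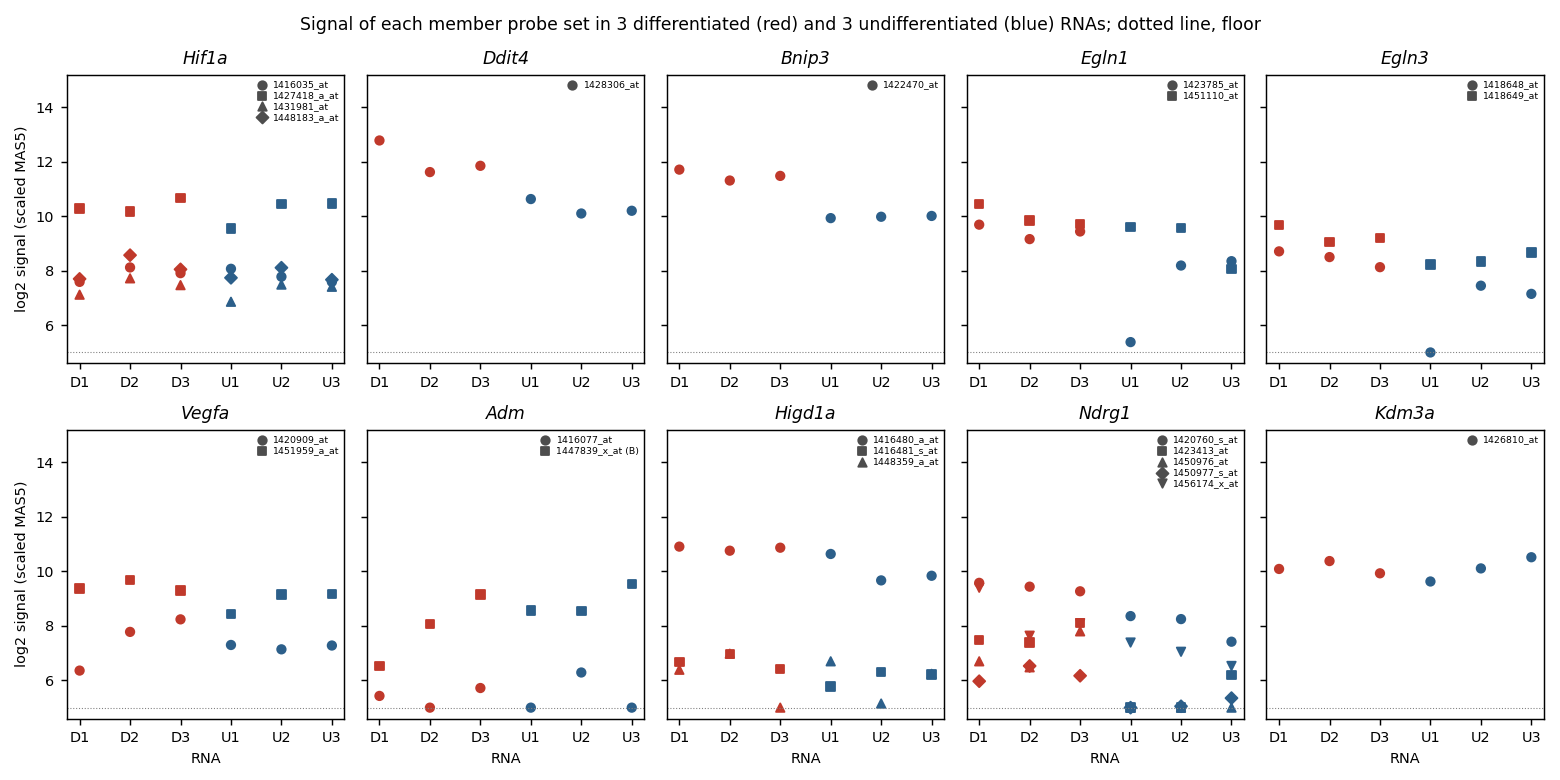
Log2 scaled MAS5 signal (vertical axis) of all 23 member probe sets, 1 panel per gene and 1 marker shape per probe set, in the 3 differentiated (red) and 3 undifferentiated (blue) RNAs, with the floor as a dotted line. In Bnip3 and Ddit4 the groups stand apart, whereas in Hif1a and Kdm3a they overlap.

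**Figure D2:**
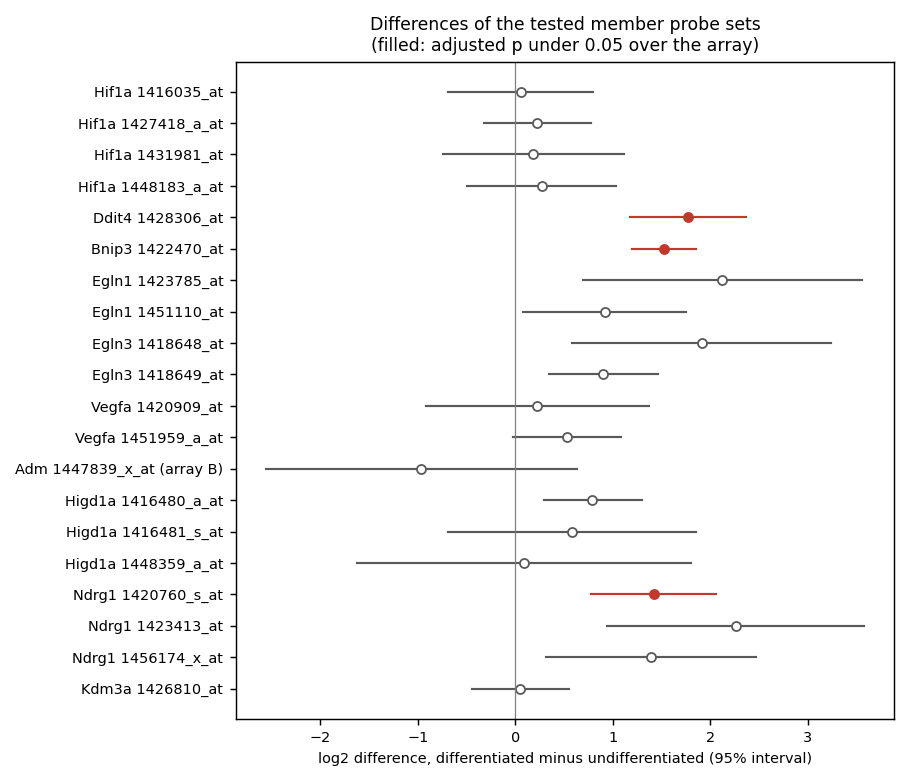
Differentiated minus undifferentiated log2 difference of every tested member probe set (horizontal axis) with its 95% interval from limma. Of the 20 intervals, those of Bnip3, Ddit4 and Ndrg1 (1420760_s_at) belong to probe sets that passed the adjusted threshold.

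The factor's own transcript did not pass on any of its 4 probe sets. Hif1a, which encodes the oxygen-regulated subunit, is represented by 1427418_a_at. It read 10.29, 10.18 and 10.66 in D1, D2 and D3 and 9.55, 10.45 and 10.46 in U1, U2 and U3. The groups overlap, and U1 is the low one among the undifferentiated RNAs. The difference was 0.22 (SE 0.25, limma adjusted p = 0.742), with an interval from 0.801-fold to 1.70-fold. The other 3 probe sets gave differences of 0.06, 0.18 and 0.27, with upper interval bounds of 0.80, 1.11 and 1.03. Across the 6 RNAs the 4 probe sets did not move alike, with pairwise r from -0.51 to 0.77, a description of 6 arrays.

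Egln1 and Egln3 encode prolyl hydroxylases that mark the alpha subunit for degradation, and both genes are themselves known HIF targets. Neither passed. For Egln3, 1418649_at read 9.68, 9.05 and 9.20 in the differentiated RNAs and 8.22, 8.34 and 8.67 in the undifferentiated ones. The groups do not overlap, the difference was 0.90 (SE 0.25), or 1.86-fold, and the limma adjusted p was 0.0938. The second probe set, 1418648_at, read 8.71, 8.50 and 8.13 against the floor, 7.45 and 7.15. Here U1, at the floor, makes up much of the difference of 1.91 (SE 0.60, adjusted p = 0.137), which was 1.15 without U1.

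The Egln1 probe sets also differ in which undifferentiated RNA is low. Egln1 1451110_at read 10.44, 9.84 and 9.71 against 9.61, 9.57 and 8.06, a difference of 0.92 (SE 0.38, limma adjusted p = 0.266). U3 is the low RNA there, and the difference was 0.40 without it. Egln1 1423785_at read 9.69, 9.16 and 9.44 against 5.38, 8.19 and 8.35, with U1 low instead. Its difference of 2.12 (SE 0.65, adjusted p = 0.124) was 1.16 without U1. In both, the groups do not overlap, but the probe sets of this gene correlated at only r = 0.22 over the 6 RNAs, against 0.82 for those of Egln3.

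Bnip3 encodes a BH3-type protein of the outer mitochondrial membrane that serves as a mitophagy receptor. It rose, with the smallest p of any member, rank 20 of the 18025 probe sets tested on array A. It read 11.71, 11.31 and 11.48 in the differentiated RNAs and 9.93, 9.98 and 10.01 in the undifferentiated ones. The undifferentiated RNAs lie within 0.04 (SD, n = 3) of 9.97, and every differentiated RNA is well above them. The difference was 1.52 (SE 0.15, limma adjusted p = 0.00052), or 2.88-fold with an interval from 2.30 to 3.60. Bnip3 passed under all 15 alternative settings, with differences from 1.42 to 1.62.

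Ddit4, also called REDD1, encodes an inhibitor of mTORC1 signalling that acts through the TSC complex and is induced by hypoxia and by other stresses. It rose, from 10.63, 10.10 and 10.20 in the undifferentiated RNAs to 12.78, 11.62 and 11.85 in the differentiated ones. D1 is the highest and the groups do not overlap. The difference was 1.77 (SE 0.27, limma adjusted p = 0.00574), or 3.41-fold with an interval from 2.27 to 5.12. Without D1 it was 1.42 (adjusted p = 0.00395). The call ended when the intensity trend was left out (0.116), with all dim probe sets kept (0.104), with a floor of 64 (0.125) and with the array lot as a block (0.171).

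Ndrg1 encodes a cytoplasmic protein tied to differentiation and stress, whose induction by hypoxia is long known. It rose by its brightest probe set, 1420760_s_at, which read 9.58, 9.44 and 9.27 in the differentiated RNAs and 8.36, 8.25 and 7.42 in the undifferentiated ones. The difference was 1.42 (SE 0.29, limma adjusted p = 0.0274), or 2.67-fold with an interval from 1.71 to 4.17. The groups do not overlap, and U3 is the lowest. The call was kept under 5 of 15 alternatives, with adjusted p from 0.014 to 0.398, and leaving out any RNA other than U1 ended it.

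All 5 Ndrg1 probe sets had differentiated RNAs above undifferentiated ones without overlap, as did 11.0% of all tested probe sets on array A. They read the same 6 RNAs, and some had undifferentiated values at the floor, so they are not independent support. Ndrg1 1423413_at read 7.48, 7.39 and 8.10 against the floor, the floor and 6.19, a difference of 2.26 (SE 0.60, limma adjusted p = 0.0758). Its undifferentiated mean was 5.40, under the filter of 6, so it was tested only through the differentiated RNAs and adds no support. Ndrg1 1456174_x_at read 9.40, 7.64 and 8.10 against 7.39, 7.05 and 6.53, a difference of 1.39 (SE 0.49, adjusted p = 0.185). The remaining 2 were too dim to be tested. Of these, 1450976_at was at the floor in all undifferentiated RNAs and at 6.70, 6.48 and 7.80 in the differentiated ones, and 1450977_s_at read 5.97, 6.53 and 6.17 against the floor, 5.05 and 5.35. Both lay at or close to the floor in the undifferentiated RNAs, so no size is read from them and they add no support.

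Higd1a encodes a small protein of the inner mitochondrial membrane associated with respiratory complexes. It did not pass. Higd1a 1416480_a_at read 10.91, 10.76 and 10.87 in the differentiated RNAs and 10.64, 9.67 and 9.84 in the undifferentiated ones. The groups do not overlap, but U1 lies close to the differentiated RNAs, which exceed it by 0.20 on average. The difference was 0.79 (SE 0.23, limma adjusted p = 0.102); without U1 it was 1.09 and passed (adjusted p = 0.00929). The other 2 probe sets were dim and gave 0.58 (adjusted p = 0.705), without overlap, and 0.09 (adjusted p = 0.973).

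Kdm3a encodes a histone demethylase that removes methyl groups from histone H3 lysine 9 and needs oxygen to do so. It showed the smallest difference of any representative member. It read 10.09, 10.38 and 9.93 against 9.63, 10.11 and 10.52, with the groups interleaved. The difference was 0.05 (SE 0.23, limma adjusted p = 0.951), with an interval from 0.73-fold to 1.46-fold, which does not reach the fold of Bnip3, Ddit4 or Ndrg1.

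Vegfa and Adm encode secreted peptides, a growth factor for endothelium and a vasodilator, and neither passed. Vegfa 1451959_a_at read 9.38, 9.69 and 9.30 against 8.44, 9.16 and 9.18. The groups do not overlap, the difference was 0.53 (SE 0.25, limma adjusted p = 0.343), and it was 0.28 without U1. The second Vegfa probe set, 1420909_at, gave 0.22 (SE 0.52), with D1 the lowest of all 6 RNAs at 6.36. For Adm, the probe set on array A had 3 of 6 arrays at the floor and was not tested. On array B, 0.0197% of tested probe sets passed in either direction. The Adm probe set there read 6.52, 8.06 and 9.16 against 8.56, 8.55 and 9.53. Its difference was the only one of the 20 below 0, -0.97 (SE 0.71, adjusted p = 0.841), and -0.27 without D1.

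The undifferentiated RNA that is low differs between genes, and D1 is often the high one: among the 12 tested probe sets without overlap, D1 was highest in 9 and D2 in 2. D1 also had the highest actin 3'/5' log2 ratio, which rises as RNA integrity falls. On array A it was 0.70, against 0.13 to 0.31 in the others. On array B it was 0.68, against 0.55 in U1 and 0.01 to 0.32 in the rest. The summed signal of D1 for embryonic stem cell markers was the lowest, 16022. It was 32557 and 36902 in D2 and D3 and 45545 to 51039 in the undifferentiated RNAs, with none of these markers at the floor. None of the 6 passed limma's threshold, and 2 had an unadjusted p under 0.05, beside 12.6% of all genes tested. By mean log2 signal, which weighs the markers equally, D1 was at 10.46, D2 at 11.43, D3 and U1 both at 11.71, U2 at 11.91 and U3 at 11.85. Markers of extraembryonic endoderm summed to 5347 to 5603 in the differentiated RNAs and 1241 to 1528 in the undifferentiated ones, and 6 of 7 rose. Ttr was at the floor in U2 and Apoa1 in U3. Apoa1 had an undifferentiated mean of 5.66, under the filter of 6, so it was tested only through the differentiated RNAs. Fibroblast markers summed to 1656 to 3089 against 5753 to 6308. Of the 8, 3 fell and 5 did not pass, among them Dcn (0.74) and Lum (0.84) with differences above 0; Col3a1 was at the floor in D2 and Bgn in D3. Endothelial markers were at 960 to 1313 against 1070 to 1150. The part of these cells and of RNA integrity in the members' differences was not tested. Without D1 the difference was 1.42 for Bnip3 (limma adjusted p = 0.00106), 1.42 for Ddit4 (0.00395) and 1.34 for Ndrg1 1420760_s_at, which no longer passed (0.0624).

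On array A the fluidics station followed the groups exactly. Scan order did so on both array types, with D1 to D3 scanned before U1 to U3. The effects of station on array A and of scan order cannot be told apart from that of the group. The array lot of array A did not follow the groups, since U1 shared its lot with D1 to D3. Within that lot, the mean of the differentiated RNAs exceeded U1 by 1.57 for Bnip3, 1.45 for Ddit4 and 1.07 for Ndrg1 1420760_s_at. With the lot as a block, which rests on U1 alone, Bnip3 passed (limma adjusted p = 0.0148) and the other 2 did not. Egln1 1423785_at (4.05, adjusted p = 0.0059) and Egln3 1418648_at (3.44, adjusted p = 0.0368), in which U1 is lowest, passed only there.

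**Figure D3:**
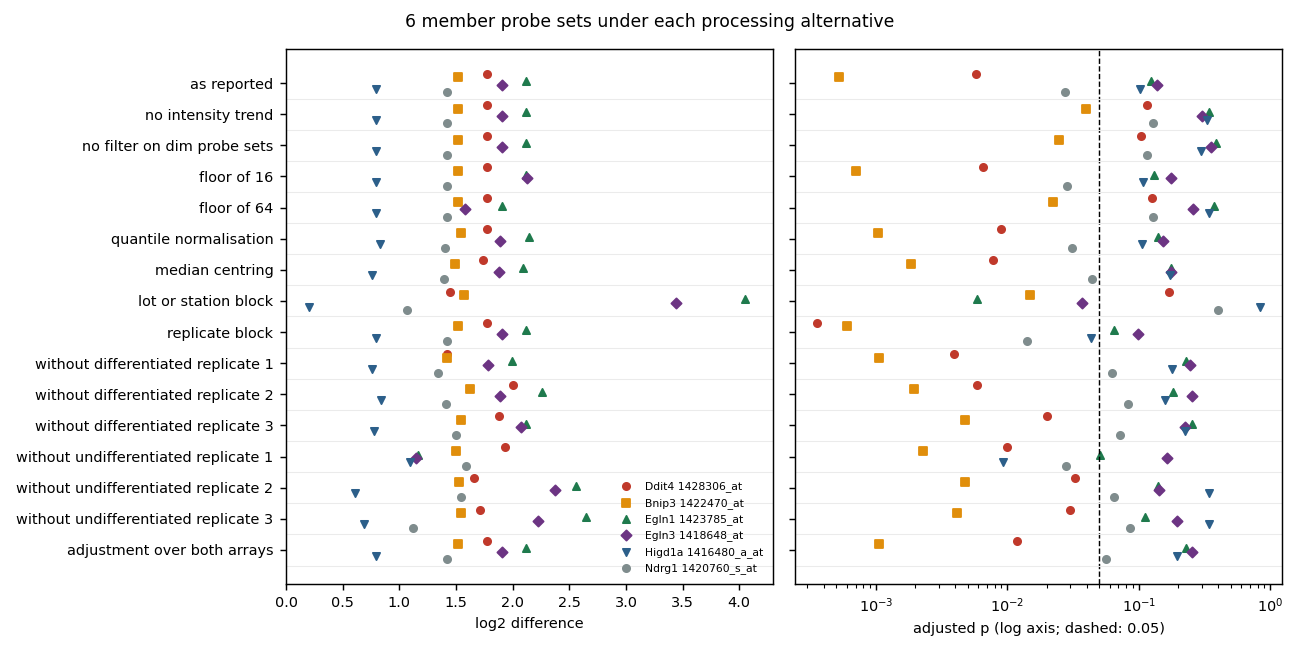
Log2 difference (left) and adjusted p on a log axis (right, threshold of 0.05 dashed) of the 6 member probe sets that passed under at least 1 setting, for the reported values and each alternative. Bnip3 stays between 1.42 and 1.62 and left of the threshold throughout, while Ndrg1 ranges from 1.07 to 1.59.

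The rest of the oxygen-sensing machinery gave no call as reported, and 1 gene rose when U1 was left out. Of 14 genes for HIF subunits, hydroxylases, coactivators and the VHL complex, all tested, 0 passed limma's threshold. Of these, 1 had an unadjusted p under 0.05, beside 12.6% of all 16461 genes tested. The median difference of the 14 was -0.02, beside 0.01 for all genes. Their differences ran from -1.01 to 1.55, and both of these end values belong to genes with 2 of 6 arrays at the floor. Hif1an, Rbx1, Ep300 and Crebbp were read on array B, where only 0.0197% of tested probe sets passed.

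Other HIF targets outside glycolysis moved both ways. Of 34 tested genes, 2 rose, 4 fell and 28 did not pass, with a median of 0.28. Among the 34, 15 had an unadjusted limma p under 0.05, beside 12.6% of all genes tested. Cxcr4, a chemokine receptor, read 8.58, 8.18 and 8.39 against 5.60, 6.11 and 5.94, a difference of 2.50 (SE 0.43, limma adjusted p = 0.0111). Its undifferentiated mean was 5.88, under the filter of 6, so it was tested only through the differentiated RNAs. Fam162a, a mitochondrial protein gene, rose by 0.84 (SE 0.18, adjusted p = 0.0339). Igfbp3, which binds insulin-like growth factors, fell from 11.10, 10.05 and 9.94 to 7.44, 6.98 and 7.37, a difference of -3.10 (SE 0.32, adjusted p = 0.000727). Lox, a collagen cross-linking oxidase, differed by -2.33 (adjusted p = 0.0222) and Pdgfb, a platelet-derived growth factor chain, by -1.10 (adjusted p = 0.0305). The fourth that fell, Tfrc, the transferrin receptor, differed by -0.84 (adjusted p = 0.0154); it lies outside the rule for named genes and was added after its values were seen. Igfbp3 was called under all 15 alternatives and Cxcr4 under 13, whereas Tfrc was called under 8, Lox and Pdgfb under 7 and Fam162a under 6. Igfbp3 and Lox are also abundant in mesenchymal cells, and the fibroblast markers given above summed to less in the differentiated RNAs, with 3 of 8 that fell; their part in these differences was not tested.

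The glycolytic and glycogen targets, the other arm of the response, are given for comparison only. Of 19 tested, 6 rose, 0 fell and 13 did not pass, with a median of 0.61. Among the 19, 11 had an unadjusted limma p under 0.05, beside 12.6% of all genes tested. Tpi1, triose-phosphate isomerase, rose by 1.11 (SE 0.11, limma adjusted p = 0.000636), Gys1, glycogen synthase, by 2.51 (SE 0.50, adjusted p = 0.0229) and Aldoa, an aldolase, by 0.91 (SE 0.15, adjusted p = 0.00838). Tpi1 was called under 14 of 15 alternatives, Aldoa under 11 and Gys1 under 8. No test of this list against the members was made.

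Around Ddit4, the 13 tested regulators of mTORC1 gave 0 calls with limma, 1 unadjusted p under 0.05 (12.6% of all genes) and a median of 0.04. Ddit4 also answers to the integrated stress response, to p53 and to glucocorticoids, so genes of those pathways were listed. Of 7 genes of the integrated stress response, 0 passed and 0 had an unadjusted p under 0.05, with a median of 0.07. Without D1, 1 gene of this list rose. Of 7 p53 targets, 1 fell, Perp, a gene of cell adhesion and apoptosis, by 1.56 on the log2 scale (adjusted p = 0.0197, called under 8 of 15 alternatives). Of 5 glucocorticoid targets, 1 fell, Sgk1, a kinase, by 0.89 (adjusted p = 0.0356, called under 4 of 15). The medians of these last lists were -0.66 for p53 and -0.21 for glucocorticoids. In them, 4 of the 7 p53 and 2 of the 5 glucocorticoid targets had an unadjusted limma p under 0.05, beside 12.6% of all genes. Those 2 differed in direction: Sgk1 fell, and Tsc22d3 lay at 1.19 (SE 0.40, adjusted p = 0.161) and did not pass. Of the 5, 2 lay above 0 and 3 below. Tsc22d3 lies outside the rule for named genes and was added after its values were seen.

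Around Bnip3, 12 tested mitophagy genes gave 0 calls with limma and 2 unadjusted p under 0.05, beside 12.6% of all genes, with a median of 0.19. Of the 12, 10 lay above 0 and 2 below, beside 50.9% of all genes above 0. Without D1, 1 gene of this list rose, and so did 1 when a second probe set stood for each gene that had one. The list was not free of calls with the lot as a block either, but that fit rests on U1 alone. Around Vegfa and Adm, 4 of 11 tested ligands and receptors had an unadjusted limma p under 0.05, beside 12.6% of all genes. Of the 11, 1 rose, beside 0.923% of all genes. It was Vegfb, a relative of Vegfa, at 9.73, 10.46 and 9.80 against 7.70, 8.62 and 8.50, a difference of 1.72 (SE 0.30, adjusted p = 0.0105); the call ended without the intensity trend, without the filter and with a floor of 64. Among 6 tested relatives of Ndrg1, Higd1a and Kdm3a, 0 passed, 1 had an unadjusted p under 0.05, beside the same 12.6%, and the median was 0.05.

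**Figure D4:**
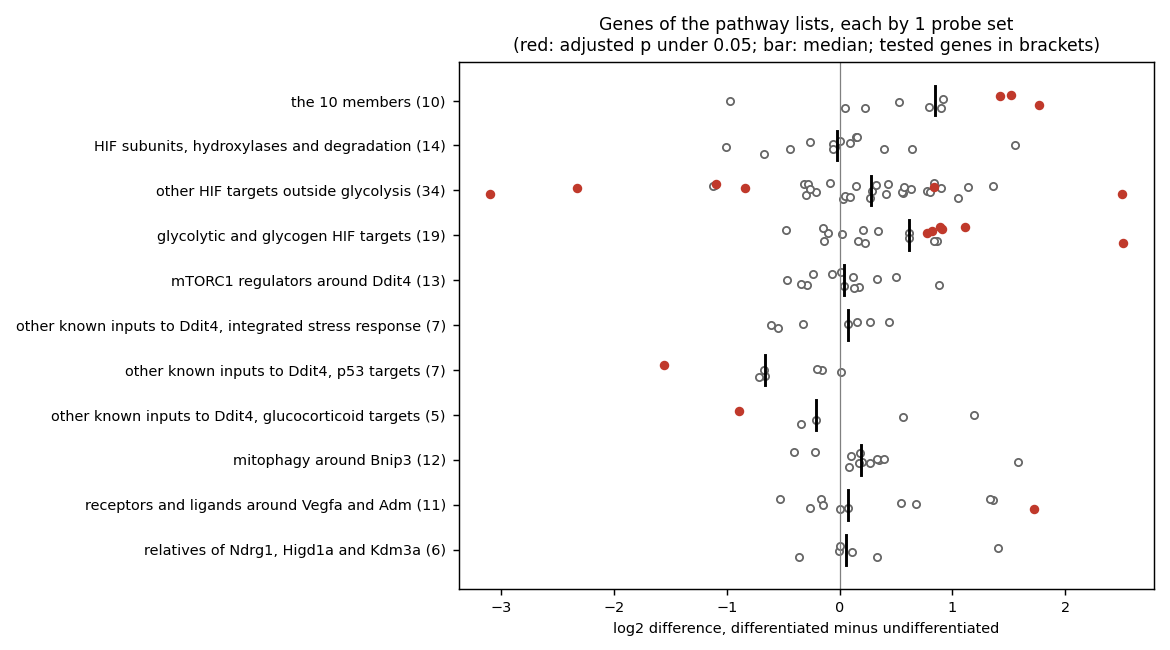
Log2 difference of each tested gene (horizontal axis, 1 point per gene) among the members and in the 10 pathway lists, with red points for an adjusted p under 0.05, a bar at each median, and random vertical scatter. Calls lie mainly in the glycolytic list, with 6, and among other HIF targets, with 2 higher and 4 lower.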

How the data were processed

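The authors deposited a linear signal intensity for each probe set on each array, made with MAS5 per the submitters' processing notes. MAS5 version, scaling target and genome build were not given in the sources used here. The deposited trimmed mean was 1500.1 to 1500.5 on every array, so any change in total RNA per cell is hidden. No detection calls were used. Gene names came from the platform annotation. The number of arrays, 3 per group, limits the precision.

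Each array was scaled to a 2% trimmed mean of 500, floored at 32 and put on the log2 scale. Probe sets with a mean under 6 were left out (18025 tested on array A, 20344 on array B). Each array type was fitted alone with limma 3.58.1 in R 4.3.3 (lmFit, eBayes with an intensity trend). Tests were two-sided, and p-values were adjusted by Benjamini-Hochberg within the array type. A gene was represented by 1 probe set, array A before array B, then the highest mean. All members were named, and of each pathway list the called genes, at most the 3 of largest absolute difference per direction. Tfrc and Tsc22d3 were added after their values were seen. The members, lists and markers were chosen with earlier results of these data known, so none of the counts is independent support. Alternatives covered scaling, floor, filter, trend, blocks and leaving out each RNA.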

Additional observations from a re-analysis of the deposited data

How the results depend on the processing

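Array A gave 518 calls as reported, 97 without the intensity trend, 194 without the filter, 194 with a floor of 64, 307 with median centring, 106 with the lot as a block and 190 to 497 with 1 RNA left out. Array B gave 4 as reported, 0 without the trend, 1 without the filter, 2 with a floor of 16, 0 with a floor of 64, 2 with median centring, 0 with the station as a block, 1 with the replicate block and 0 to 2 with 1 RNA left out. Member probe sets called were 3 as reported and 1 without the trend, without the filter or with a floor of 64, and 2 to 4 with 1 RNA left out; member genes called were 3, and 1 under the same settings and with the lot as a block. Genes called in the 10 pathway lists were 15 as reported, 2 without the trend, 5 without the filter, 5 with a floor of 64, 4 with the block and 6 to 16 with 1 RNA left out. The cause of these drops was not tested.

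Among the tested member probe sets and the called list genes named with their differences, the sign turned only for probe sets that had not passed: Hif1a 1416035_at (-0.20 with the lot as a block, -0.07 to 0.20 with 1 RNA left out), Hif1a 1427418_a_at (-0.08 to 0.38), Hif1a 1431981_at (-0.01 to 0.34), Vegfa 1420909_at (-0.16 to 0.77), Kdm3a (-0.18 to 0.26) and Higd1a 1448359_a_at (-0.05 with quantile normalisation, -0.58 with the lot as a block, -0.35 to 0.65 with 1 RNA left out).

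Same-numbered RNAs of the groups share only a number: their deviations correlated at 0.157, 0.012 and 0.073 on array A and 0.183, 0.097 and 0.118 on array B, where every RNA correlated best with its own number, a hint from the data and not from the design. With the replicate block, 724 probe sets on array A passed, and 4 member probe sets, Higd1a 1416480_a_at (adjusted p = 0.043) being added. Probe sets near the floor have only coarse differences, since signal under 32 has no order.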
